A study of Homo sapiens with 21 samples.

Results

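In OCI-AML5 cells, a human acute myeloid leukaemia line, 25 genes had almost no RNA under DMSO and were expressed in every library after 72 h of UM171, a small molecule used to expand blood stem cells in culture. They were chosen from the values of the DMSO and 72 h libraries. A gene had to have a mean of at most 0.1 TPM (a relative transcript level corrected for transcript length) and at most 3 expected counts in every DMSO library, and at least 2 TPM and 30 expected counts in every 72 h library. Of 58174 genes in the files, 38417 met the DMSO limits and 11981 met the 72 h limits. The 25 genes meeting both were 0.0651% of those silent in DMSO. They lay on 14 chromosomes and comprised 20 protein-coding genes, 4 long non-coding RNAs and 1 pseudogene, with 72 h means from 2.11 TPM (WNT5B) to 167 TPM (GZMB) and a median of 4.61 TPM. Since the DMSO and 72 h values made the choice, they are given below as a description and were not tested. The opposite rule (expressed in every DMSO library and silent at 72 h) found 1 gene, the unnamed ENSG00000272196.

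Poly(A) RNA was sequenced from 21 libraries in 7 groups of 3. OCI-AML5 cells were kept in DMSO for 72 h, according to the labels, or in UM171 at a labelled dose of 500 nM for 6, 24, 48 or 72 h, so that 1 DMSO group stood for every time. The study's figure legends name a lower dose, which leaves the dose uncertain. Cells of OCI-AML5 clones carrying a guide RNA against PROCR (sgEPCR, labelled both EPCR null and EPCR knockdown) were kept in DMSO or in 500 nM UM171 for 24 h. The study describes 3 independent sgEPCR clones and sgAAVS1 controls. The labels do not tie the sgEPCR libraries to a clone or guide and name no guide for the other cells. The effect of the guide and differences between clones and the other cells therefore cannot be told apart. Nothing in the labels says that the 3 libraries of a group came from separate cultures. The p-values therefore measure the spread between these libraries, which may be technical or, in the sgEPCR groups, between clones. Each fit estimated this spread over all its groups, also those not compared. Replicate pairs were compared by their mean squared difference relative to counting error, where 1 is counting error alone. This was 577 to 799 in pairs with sgEPCR DMSO replicate 1 or sgEPCR UM171 replicate 2. It was 51.6 and 55.7 in pairs with 48 h replicate 3 and 1.66 to 10.2 in the other pairs.

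A library held between 24.3 and 51.5 M expected counts (median 33.9 M), so that 3 counts, the limit for silence, corresponded to at most 1.24e-05% of a library. This floor covers counting error alone. PROCR, which the guide targets, averaged 3.68 ± 0.534 TPM under DMSO and 48.5 ± 0.0115 TPM after 24 h of UM171 (SD, n = 3). With sgEPCR the averages were 3.59 ± 1.15 TPM under DMSO and 7.19 ± 2.58 TPM under UM171. Mitochondrial genes held 7.73 to 13.5% of the counts in 19 libraries, but 35.9% in replicate 1 of sgEPCR DMSO and 32.2% in replicate 2 of sgEPCR UM171. The myeloid genes CD33 and CSF2RA were expressed in DMSO (178 and 13.0 TPM).

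IL-33, encoded by IL33, is a cytokine of the IL-1 family stored in the nucleus and released on damage, and its receptor ST2, the product of IL1RL1, is carried by mast cells, basophils and other type 2 immune cells, in which its activation drives the release of further cytokines. Prostaglandins are lipid mediators made from arachidonic acid, and separate enzymes form prostaglandin D (HPGDS), convert it further (AKR1C3) or inactivate prostaglandins (HPGD). Granzyme B and epithelial keratins are better known from cytotoxic lymphocytes and stratified epithelia, where they serve in target cell killing and in the intermediate filament network.

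Promoter sequences were available for 18 of the 25 genes, as 24 RefSeq windows (GRCh38.p14) running from 250 bases before to 50 bases after a transcription start, and 5 are shown because they represent the granzyme, a growth factor, a cytokine, a prostaglandin enzyme and a neuropeptide precursor, first detected at 6 h (AREG), 24 h (GZMB, IL6 and HPGDS) and 48 h (PMCH). Sequences run 5′ to 3′ on the strand of the gene. Capitals mark every match, on either strand, to 8 short motifs that were searched: the TATA box as TATAAA, the motif of AP-1 factors as TGANTCA, the half-site of the cAMP response element as TGACG, the motif of NF-kB as GGGNN directly followed by TTTCC, that of the myeloid factor PU.1 as GAGGAA, that of the RUNX factors as TGTGGT, that of the GATA factors as AGATAA and that of the STAT factors as TTCNNNGAA.
GZMB, chr14:24634141-24634440, minus strand: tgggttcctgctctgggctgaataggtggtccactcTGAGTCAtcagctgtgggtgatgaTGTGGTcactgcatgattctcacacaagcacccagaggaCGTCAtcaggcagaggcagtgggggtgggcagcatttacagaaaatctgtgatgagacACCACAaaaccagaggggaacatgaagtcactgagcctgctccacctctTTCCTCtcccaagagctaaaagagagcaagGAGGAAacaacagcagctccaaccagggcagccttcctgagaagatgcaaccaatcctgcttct
AREG, chr4:74444886-74445185, plus strand: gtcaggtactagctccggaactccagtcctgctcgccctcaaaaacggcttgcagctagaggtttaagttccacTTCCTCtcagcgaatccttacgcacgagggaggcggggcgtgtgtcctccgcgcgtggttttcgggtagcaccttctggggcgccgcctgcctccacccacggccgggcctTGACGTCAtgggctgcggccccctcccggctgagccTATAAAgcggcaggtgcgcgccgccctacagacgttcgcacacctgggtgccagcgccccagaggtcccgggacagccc
IL6, chr7:22726950-22727249, plus strand: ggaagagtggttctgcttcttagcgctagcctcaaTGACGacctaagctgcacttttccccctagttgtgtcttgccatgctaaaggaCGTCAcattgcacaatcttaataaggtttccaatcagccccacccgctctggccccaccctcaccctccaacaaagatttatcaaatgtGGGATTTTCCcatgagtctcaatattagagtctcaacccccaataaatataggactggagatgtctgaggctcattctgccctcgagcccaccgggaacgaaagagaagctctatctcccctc
HPGDS, chr4:94342787-94343086, minus strand: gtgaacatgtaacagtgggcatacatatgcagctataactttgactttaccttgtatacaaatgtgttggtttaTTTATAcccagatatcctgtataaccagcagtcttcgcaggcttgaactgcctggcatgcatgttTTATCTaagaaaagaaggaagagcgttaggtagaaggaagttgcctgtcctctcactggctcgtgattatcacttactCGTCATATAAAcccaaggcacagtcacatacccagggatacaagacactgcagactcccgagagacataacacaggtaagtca
PMCH, chr12:102197784-102198083, minus strand: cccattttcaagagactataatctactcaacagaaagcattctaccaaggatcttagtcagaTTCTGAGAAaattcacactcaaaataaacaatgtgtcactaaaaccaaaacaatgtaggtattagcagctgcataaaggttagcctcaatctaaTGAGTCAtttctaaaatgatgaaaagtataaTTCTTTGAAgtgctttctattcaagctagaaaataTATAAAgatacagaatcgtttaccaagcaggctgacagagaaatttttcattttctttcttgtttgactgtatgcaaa

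The window of GZMB held an AP-1 match, a TGACG match and matches to the PU.1 and RUNX motifs, and that of PMCH held an AP-1 match, a pair of STAT matches and a TATAAA box close to the start. AREG carried the palindrome made by 2 overlapping TGACG half-sites, with TATAAA downstream. IL6 was the gene of the 18 with an NF-kB match, which 1.91% of all 34943 RefSeq windows of this length also held. HPGDS had TATAAA directly after a TGACG half-site. Across the 24 windows, TATAAA was present in 33.3% (11.6% of all windows), AGATAA in 29.2% (10.4%), TGTGGT in 25% (13.1%), GAGGAA in 33.3% (27.9%), TGACG in 33.3% (24.5%), TGANTCA in 12.5% (7.72%) and TTCNNNGAA in 8.33% (7.66%). The median ratio of observed to expected CpG was 0.333 in the windows of the 18 genes and 0.577 in all windows, and 16.7% against 48.7% exceeded 0.6. Among the windows printed, AREG had a ratio of 0.824 and the other 4 had ratios of 0.405 or lower. A match says only that these letters are present, and windows of 1 gene can share bases.

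**Figure D1:**
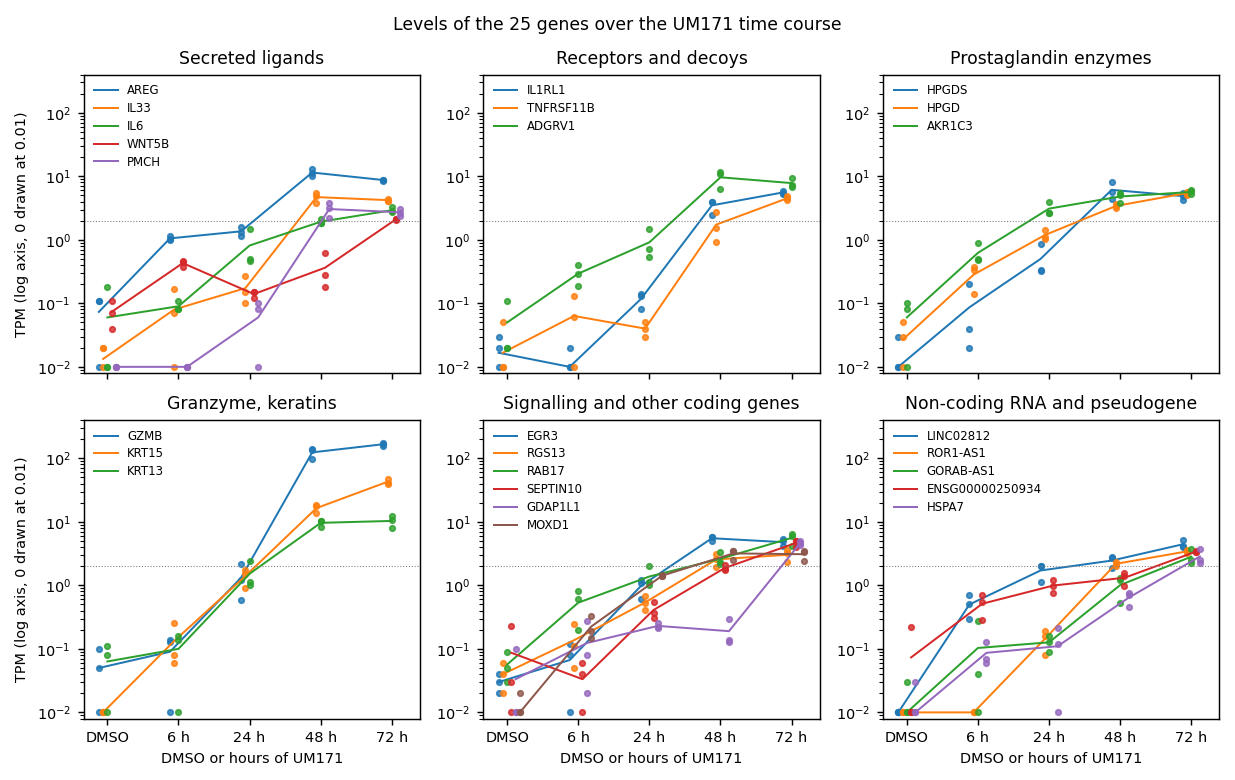
Levels of the 25 genes in the DMSO and UM171 libraries, grouped by role. Each point is 1 library, lines join the means of 3 libraries, the vertical axis is TPM on a log scale with values of 0 drawn at 0.01, and the dotted line marks 2 TPM. DMSO is placed at the left although its label gives 72 h. The 72 h points of every gene lie above 2 TPM, as the rule required, while GDAP1L1, WNT5B and HSPA7 were still below 1 TPM in every library at 48 h.

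Ligands and hormone precursors were encoded by 5 of the 25 genes. AREG, on chr4:74445136-74455005, encodes amphiregulin, a ligand of the epidermal growth factor receptor. It was at 0.11, 0.11 and 0 TPM in the DMSO libraries, at 0.99, 1.14 and 1.03 TPM at 6 h and at 1.35, 1.14 and 1.59 TPM at 24 h. It was at 11.4, 13 and 9.98 TPM at 48 h and at 8.76, 8.54 and 8.89 TPM at 72 h. AREG was therefore the member with the highest 6 h level, and its 48 h libraries all lay above its 72 h libraries. Its neighbour EREG, another ligand of this receptor, reached a mean of 0.0733 TPM at 72 h, and the receptor gene EGFR was listed at 0 in these groups. In bulk RNA, more cells expressing a gene and more RNA per cell cannot be told apart, which holds for every level given here.

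IL33 (chr9:6215786-6257983) was at 0, 0.02 and 0.02 TPM in DMSO, at 0.07, 0 and 0.17 TPM at 6 h and at 0.15, 0.1 and 0.27 TPM at 24 h. At 48 h it was at 4.84, 5.46 and 3.81 TPM and at 72 h at 4.43, 4.1 and 4.12 TPM, with overlapping ranges at these last times. IL6 (chr7:22725884-22732002), a cytokine of the acute phase response, had means of 0.06 TPM in DMSO, 0.09 TPM at 6 h, 0.813 TPM at 24 h, 1.93 TPM at 48 h and 2.92 TPM at 72 h. The gene of its receptor, IL6R, had 255 ± 2.89 TPM in DMSO and 44.2 ± 5.05 TPM at 72 h (SD, n = 3).

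PMCH (chr12:102196459-102197833), the precursor of melanin-concentrating hormone, had 0 counts in all 3 DMSO and all 3 6 h libraries and means of 0.06, 3.05 and 2.71 TPM at 24, 48 and 72 h. It lies on the opposite strand within the region of PARPBP, which had 25.1 TPM in DMSO and 13.8 TPM at 72 h. The library kit marks strand, but the strand setting of the counting is not given in the sources used here. WNT5B (chr12:1529891-1647212), a Wnt ligand, took another course. It was at 0.04, 0.11 and 0.07 TPM in DMSO, at 0.45, 0.46 and 0.38 TPM at 6 h, at 0.15, 0.12 and 0.15 TPM at 24 h, at 0.28, 0.63 and 0.18 TPM at 48 h and at 2.15, 2.06 and 2.13 TPM at 72 h. Each 6 h library of WNT5B lay above each 24 h library.

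Receptors were encoded by 3 of the genes. IL1RL1 (chr2:102311502-102352037), the ST2 receptor of IL-33, was at 0.02, 0.03 and 0 TPM in DMSO, at 0, 0 and 0.02 TPM at 6 h and at 0.14, 0.08 and 0.13 TPM at 24 h. It was at 4.01, 4.01 and 2.45 TPM at 48 h and at 5.55, 5.9 and 5.27 TPM at 72 h, so that each 72 h library exceeded each 48 h library. IL1RAP, which encodes the partner chain of ST2, was expressed from the start, with 53.4 ± 1.96 TPM in DMSO and 106 ± 7.96 TPM at 72 h (SD, n = 3). IL18R1, which overlaps IL1RL1 on the same strand, had 1.12 ± 0.164 TPM in DMSO, was already at 7.41 TPM at 6 h, before IL1RL1 was detected, and had 12.5 ± 1.11 TPM at 72 h. Thus RNA of the genes IL33, IL1RL1 and IL1RAP was present at 48 and 72 h. The values are per gene and do not separate transcript forms of a gene.

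TNFRSF11B (chr8:118923557-118951885) encodes osteoprotegerin, a soluble decoy receptor that binds the TNF family ligand RANKL. It had means of 0.0167 TPM in DMSO, 0.0633 TPM at 6 h, 0.04 TPM at 24 h, 1.73 TPM at 48 h and 4.51 TPM at 72 h. The gene of that ligand, TNFSF11, was listed at 0 in these groups. ADGRV1 (chr5:90529344-91164437), a very large adhesion G protein-coupled receptor best known from the inner ear and retina, was at 0.02, 0.02 and 0.11 TPM in DMSO, at 0.19, 0.4 and 0.29 TPM at 6 h and at 0.71, 0.53 and 1.5 TPM at 24 h. It was at 11.7, 10.9 and 6.32 TPM at 48 h and at 7.3, 6.77 and 9.38 TPM at 72 h, and these last ranges overlapped.

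The 3 prostaglandin enzymes came up at different times. AKR1C3 (chr10:5035354-5107686), an aldo-keto reductase that acts on prostaglandins and steroids, was at 0.1, 0.08 and 0 TPM in DMSO, at 0.48, 0.9 and 0.49 TPM at 6 h and at 2.64, 3.97 and 2.69 TPM at 24 h. It was at 5.44, 5.16 and 3.82 TPM at 48 h and at 5.2, 5.99 and 5.82 TPM at 72 h. At 24 h AKR1C3 had reached 54.7% of its 72 h mean, the highest share of the 25 genes. Its close paralogues AKR1C1 and AKR1C2 had 2.18 ± 0.365 and 3.15 ± 0.652 TPM at 72 h (SD, n = 3), and reads common to the 3 genes could have been split between them.

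HPGD (chr4:174490175-174523154), the dehydrogenase that inactivates prostaglandins, was at 0.03, 0.05 and 0 TPM in DMSO, at 0.14, 0.33 and 0.38 TPM at 6 h and at 1.43, 1.02 and 1.11 TPM at 24 h. It was at 3.17, 3.7 and 3.36 TPM at 48 h and at 5.71, 5.15 and 5.49 TPM at 72 h, which made each later group lie wholly above the group before it. HPGDS (chr4:94298535-94342876), the haematopoietic prostaglandin D synthase, was at 0.03, 0 and 0 TPM in DMSO, at 0.02, 0.2 and 0.04 TPM at 6 h and at 0.33, 0.32 and 0.85 TPM at 24 h. It was at 5.75, 8.2 and 4.41 TPM at 48 h and at 4.16, 4.94 and 5.54 TPM at 72 h. HPGDS therefore followed AKR1C3 and HPGD, with 10.2% of its 72 h mean at 24 h and 125% at 48 h. PTGS1 and PTGS2, the cyclooxygenases upstream of these enzymes, were not silent in DMSO and had 69.7 ± 1.93 and 25.4 ± 1.58 TPM at 72 h.

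GZMB (chr14:24630954-24634267), the serine protease granzyme B, reached by far the highest level. It was at 0.1, 0 and 0.05 TPM in DMSO, at 0, 0.14 and 0.13 TPM at 6 h and at 0.58, 1.23 and 2.15 TPM at 24 h. It was at 141, 134 and 96.9 TPM at 48 h and at 159, 172 and 169 TPM at 72 h. Most of the gain fell between 24 and 48 h, from 0.792% to 74.2% of the 72 h mean. Other genes of the cytotoxic granule did not follow: GZMA, GZMH and GZMK stayed at or below a mean of 0.0533 TPM in every group, and PRF1, the pore-forming perforin, at or below 0.31 TPM. SRGN, the granule proteoglycan serglycin, had 2370 ± 40.2 TPM in DMSO and 2790 ± 190 TPM at 72 h (SD, n = 3). GZMB lies near the granule protease gene CTSG, which had 31.5 TPM in DMSO and 143 TPM at 72 h.

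KRT15 and KRT13, keratin genes 8040 bp apart on chromosome 17, had the next highest levels. KRT15 (chr17:41513745-41522529), a basal epithelial keratin, had 0 counts in all 3 DMSO libraries. It was at 0.06, 0.26 and 0.08 TPM at 6 h, at 1.51, 0.92 and 1.77 TPM at 24 h, at 17.6, 18.1 and 13.6 TPM at 48 h and at 39.9, 46.8 and 41.5 TPM at 72 h. Against a floor of 3 counts in each DMSO library, the 72 h level was at least 372-fold higher. KRT13 (chr17:41500981-41505705), a keratin of stratified mucosa, was at 0, 0.11 and 0.08 TPM in DMSO, at 0, 0.16 and 0.14 TPM at 6 h and at 1.14, 1.02 and 2.41 TPM at 24 h. It was at 10.2, 10.3 and 8.43 TPM at 48 h and at 7.9, 12.4 and 10.7 TPM at 72 h. KRT15 was thus still climbing between 48 and 72 h without overlap, whereas the ranges of KRT13 overlapped. Of the keratins around them, KRT9 had 1.5 TPM in DMSO and 60.2 TPM at 72 h, while KRT19, 1088 bp from KRT15, had 0.227 TPM at 72 h and KRT14 and KRT16 at most 0.02 TPM.

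A further 6 coding genes were of mixed function. RAB17 (chr2:237574322-237601614), a small GTPase of membrane traffic in epithelia, was at 0.03, 0.09 and 0.05 TPM in DMSO, at 0.2, 0.6 and 0.8 TPM at 6 h and at 1.11, 1.01 and 2.01 TPM at 24 h. It was at 2.3, 3.38 and 2.19 TPM at 48 h and at 6.48, 4.2 and 6.06 TPM at 72 h, where all libraries exceeded those of 48 h. MOXD1 (chr6:132296055-132401475), a monooxygenase of the dopamine beta-hydroxylase family, was at 0.01, 0.02 and 0 TPM in DMSO, at 0.15, 0.19 and 0.33 TPM at 6 h and at 1.42, 1.4 and 1.44 TPM at 24 h. It was at 3.49, 3.52 and 2.54 TPM at 48 h and at 2.46, 3.42 and 3.39 TPM at 72 h, with no separation of these last groups.

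EGR3 (chr8:22687659-22693480), a zinc finger transcription factor of the immediate early class, was at 0.03, 0.04 and 0.02 TPM in DMSO, at 0.08, 0.12 and 0 TPM at 6 h and at 1.1, 0.61 and 1.21 TPM at 24 h. It was at 5.86, 5.75 and 4.95 TPM at 48 h and at 4.91, 5.3 and 4.15 TPM at 72 h. Its relative EGR1 was expressed at 1.94 TPM in DMSO and 26.1 TPM at 72 h. RGS13 (chr1:192636138-192660311), a regulator of G protein signalling known from mast cells and germinal centre B cells, was at 0.04, 0.02 and 0.06 TPM in DMSO, at 0.05, 0.11 and 0.25 TPM at 6 h and at 0.41, 0.52 and 0.68 TPM at 24 h. It was at 2.59, 3.17 and 1.91 TPM at 48 h and at 2.3, 3.23 and 3.56 TPM at 72 h. SEPTIN10 (chr2:109542799-109614143), a GTPase of septin filaments, had means of 0.0867, 0.0333, 0.41, 1.87 and 4.64 TPM in DMSO and at 6, 24, 48 and 72 h. EGR3 and RGS13 overlapped between 48 and 72 h, and SEPTIN10 did not.

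GDAP1L1 (chr20:44247099-44280947), a paralogue of the mitochondrial gene GDAP1, was the latest of the 25. Its means were 0.0333, 0.123, 0.23, 0.19 and 4.61 TPM in DMSO and at 6, 24, 48 and 72 h, so that its 72 h mean was 24.3 times its 48 h mean. The next largest step from 48 to 72 h was that of WNT5B, with a ratio of 5.82.

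The non-coding members were expressed between 2.82 and 4.43 TPM at 72 h. LINC02812 (chr1:53366656-53368245) had 0 counts in all DMSO libraries and was at 0.5, 0.7 and 0.3 TPM at 6 h, at 2.02, 2 and 1.12 TPM at 24 h, at 2.73, 2.75 and 1.88 TPM at 48 h and at 4.14, 5.1 and 4.04 TPM at 72 h. ROR1-AS1 (chr1:64094379-64171342) also had 0 counts in DMSO and means of 0, 0.143, 2.18 and 3.43 TPM at 6, 24, 48 and 72 h. Its sense partner ROR1 did not exceed a mean of 0.133 TPM in the time course. GORAB-AS1 (chr1:170460453-170532647) went from 0.01 TPM in DMSO to 1.01 and 2.82 TPM at 48 and 72 h, beside its sense partner GORAB at 9.71 TPM in DMSO and 16.5 TPM at 72 h. Without the strand setting, reads of an antisense gene and of its partner cannot be told apart.

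The unnamed lncRNA ENSG00000250934 (chr3:126266747-126291525) had 31, 31 and 36 expected counts at 72 h, the fewest of the 25 genes, at a mean of 3.38 TPM. HSPA7 (chr1:161606291-161608217), a pseudogene, was at 3.79, 2.21 and 2.54 TPM at 72 h and at a mean of 0.01 TPM in DMSO. It is nearly identical to HSPA6, which had 13.2 TPM in DMSO and 16.8 TPM at 72 h, and lies 629 bp from FCGR2C, which went from 0.663 to 11.2 TPM. Reads could have been split among such copies, so the level of HSPA7 is uncertain.

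Time of first detection was taken as the first time at which all 3 libraries held more than 3 expected counts of a gene. At 6 h this was so for 8 genes: AREG, ADGRV1, AKR1C3, RAB17, HPGD, LINC02812, MOXD1 and WNT5B. At 24 h 13 more were detected, namely GZMB, KRT15, KRT13, IL1RL1, HPGDS, EGR3, SEPTIN10, IL33, ROR1-AS1, ENSG00000250934, RGS13, IL6 and GORAB-AS1. At 48 h TNFRSF11B, HSPA7 and PMCH followed, and at 72 h GDAP1L1. The 8 earliest genes thus include 2 of the 3 prostaglandin enzymes, while both IL33 and its receptor gene belong to the 24 h group. Counts were not corrected for depth here, and the median library held 30.2 M counts at 6 h and 44.1 M at 24 h. Detection of genes with few counts at 24 h can therefore depend on depth. AREG had 30, 27 and 21 counts at 6 h and WNT5B 19, 13 and 10 counts, while ADGRV1 had 11, 18 and 4 counts and LINC02812 had 10, 11 and 4 counts, close to the limit. With a limit of more than 10 counts in each library, 2 genes were detected at 6 h and 9 at 48 h, and with a limit of a mean above 0.1 TPM, 14 were detected at 6 h. GDAP1L1 had 6, 8 and 2 counts at 24 h and 7, 3 and 2 counts at 48 h, so that no gene was left for 72 h when 2 of 3 libraries were enough.

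**Figure D2:**
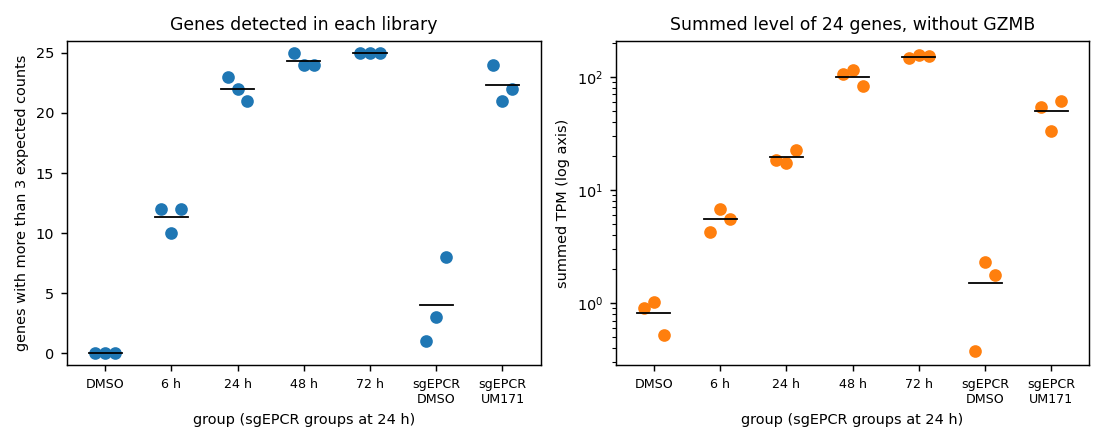
Detection of the 25 genes in each of the 21 libraries. Left, the number of genes with more than 3 expected counts; right, the summed TPM of the 24 genes without GZMB on a log axis. Points are libraries and bars are means of 3. The 6 h libraries held 10 to 12 of the genes, the 24 h libraries 21 to 23, and the sgEPCR DMSO libraries 1, 3 and 8.

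Counted by library, 0 of the 25 genes exceeded 3 counts in any DMSO library, which the rule imposed, against 12, 10 and 12 genes in the 6 h libraries, 23, 22 and 21 in the 24 h libraries and 25, 24 and 24 in the 48 h libraries. The levels at first were small. The median gene stood at 3.04% of its 72 h mean at 6 h (range 0 to 20.3%), at 10.2% at 24 h (0.792 to 54.7%) and at 63.6% at 48 h (4.12 to 131%). The expression limit of the rule (2 TPM and 30 counts in every library) was met by 0 genes at 6 h, by AKR1C3 alone at 24 h and by 15 genes at 48 h. The highest mean fell at 72 h for 18 of the 25, and AREG, ADGRV1, HPGDS, EGR3, IL33, MOXD1 and PMCH had it at 48 h. Applied to 48 h in place of 72 h, the whole rule found 16 genes, of which 15 were among the 25 and the other was the chemokine CCL20.

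**Figure D3:**
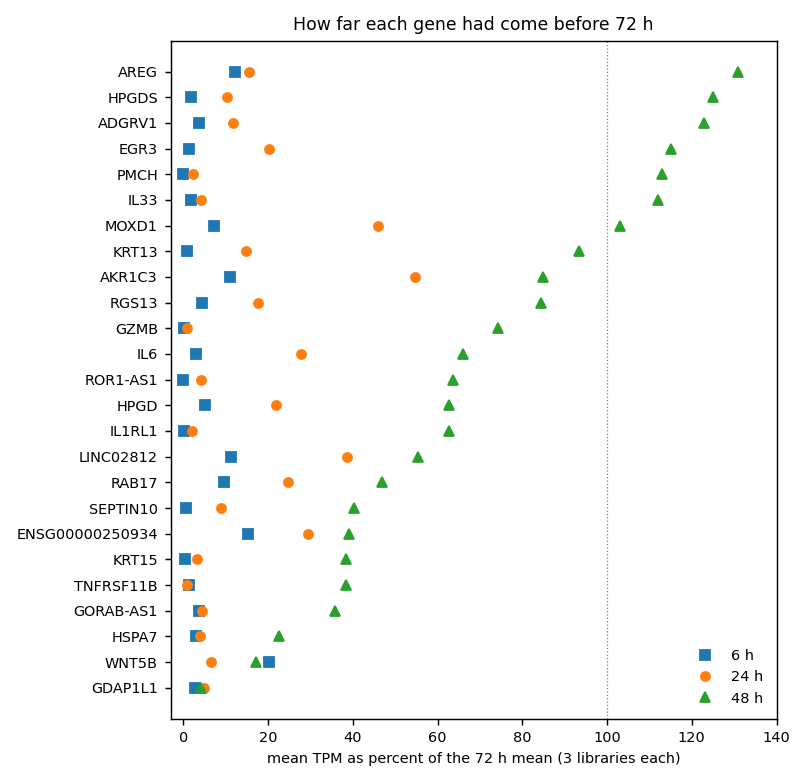
Mean TPM of each gene at 6, 24 and 48 h as a percentage of its mean at 72 h, with 3 libraries behind each mean. Genes are ordered by the 48 h share, from AREG at 131% to GDAP1L1 at 4.12%, and the dotted line marks the 72 h level. WNT5B is the gene whose 6 h share (20.3%) exceeded its 48 h share (17.2%).

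Neither the 6 h nor the 24 h libraries entered the rule, though the fit behind the tests also held the DMSO and 72 h libraries. The genes were, however, chosen to be higher at 72 h than in DMSO, so that a rise at some step was fixed, and the counts and medians for 24 h against 6 h and for 48 h against 24 h show when the genes rose, not that they rose more often than other genes. Called by edgeR's quasi-likelihood test, with more than a 2-fold change and an adjusted p below 0.0001, 14 of the 25 genes were higher at 24 h than at 6 h and 0 were lower. Over all 16575 genes tested, 598 were higher (3.61%). The 14 genes were GZMB, KRT15, KRT13, AKR1C3, RAB17, IL1RL1, HPGD, EGR3, SEPTIN10, LINC02812, ROR1-AS1, MOXD1, RGS13 and IL6. The median log2 change was 2.43 over the 25 genes, and -0.03 over all genes. It was 1.92 over the 25 genes with ROR1-AS1, at 0 counts in every 6 h library, set at its bound and with PMCH, also at 0 there and not above 3 counts in every 24 h library, set at 0. ROR1-AS1 was at least 1.94-fold higher on that bound. All 25 genes passed the filter on low counts, which a gene could do through its 48 and 72 h libraries.

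The best resolved step was that of MOXD1, with a log2 change of 3.11 (SE 0.20, adjusted p = 5.5e-10). EGR3 rose by a log2 change of 4.89 (SE 0.47, adjusted p = 9.2e-08) and KRT13 by 4.85 (SE 0.45, adjusted p = 5.3e-08), fitted folds of 29.6 and 28.9. AKR1C3 and HPGD, detected already at 6 h, rose again by 2.48 (SE 0.25, adjusted p = 1.7e-07) and 2.43 (SE 0.24, adjusted p = 1.5e-07). AREG, in contrast, had a log2 difference of 0.43 (SE 0.21, adjusted p = 0.078) and did not pass. WNT5B had a log2 difference of -1.76 (SE 0.38, adjusted p = 0.00055), which missed the limit, at an unadjusted p of 0.00024. It was the 1 gene that was lower at an adjusted p under 0.05, with edgeR and with DESeq2, where 0 genes were called lower at the stricter limit by either tool. The number called higher fell to 9 without 24 h replicate 3 and to 7, 8 and 9 without 6 h replicates 1, 2 and 3. It was 3 with limma on log2(TPM + 1), 8 in a fit of the 6 h and 24 h libraries alone, and 14 with DESeq2.

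Between 24 and 48 h, 18 of the 25 genes rose and 0 fell by the same test, with 416 of 16575 genes higher in all (2.51%). At an unadjusted p under 0.05, 23 genes were higher and 0 lower, and DESeq2 called 19 higher. The median log2 change was 2.87 over the 25 genes and 0.01 over all genes. The genes not called were AKR1C3, RAB17, GDAP1L1, LINC02812, ENSG00000250934, HSPA7 and WNT5B. GZMB had the largest change, a log2 change of 6.97 (SE 0.15, adjusted p = 6.4e-15), or 125-fold. TNFRSF11B rose by 5.45 (SE 0.38, adjusted p = 8.3e-09), PMCH by 5.31 (SE 0.46, adjusted p = 1.1e-06) and IL33 by 5.27 (SE 0.25, adjusted p = 9.1e-11).

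The receptor gene IL1RL1 rose in the same interval as its ligand gene, by a log2 change of 4.74 (SE 0.22, adjusted p = 6.4e-11). HPGDS rose by 4.14 (SE 0.23, adjusted p = 5.4e-10), HPGD by 1.54 (SE 0.16, adjusted p = 1.1e-06), and AKR1C3 had a difference of 0.48 (SE 0.19, adjusted p = 0.046). AREG, which had not passed between 6 and 24 h, rose by 3.19 (SE 0.16, adjusted p = 1e-10). ADGRV1 rose by 3.41 (SE 0.23, adjusted p = 4.3e-09) and KRT15 by 3.35 (SE 0.15, adjusted p = 1.8e-10). GDAP1L1 had a log2 difference of -0.20 (SE 0.47, adjusted p = 0.79). With 1 library left out, 16 to 18 genes were called.

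Since the rule used the 72 h libraries, the step from 48 to 72 h was not tested. For the same reason the contrast of 72 h with DMSO, in which 25 of 25 genes passed as the rule ensured and 15% of 16575 genes were higher, is given as background and supports nothing about these genes.

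The rule did not use the sgEPCR libraries. The tests with them, however, shared an estimate of spread with the UM171 24 h libraries and with the DMSO libraries, which the rule did use. In sgEPCR DMSO, 0 of the 25 genes were detected in all 3 libraries, and 16 had at most 3 counts in each. The libraries held 1, 3 and 8 of the genes above 3 counts, the last in replicate 3, where RGS13 had 7 counts, ADGRV1 and AKR1C3 had 6 counts and ENSG00000250934 had 5 counts. Replicate 2 held 13 counts of RGS13, the most of any member in this group. After 24 h of UM171, 21 of the 25 genes were detected in all 3 sgEPCR libraries. The 4 exceptions were GDAP1L1, TNFRSF11B, HSPA7 and WNT5B. PMCH, not yet detected in UM171 cells at 24 h, had 7, 21 and 16 counts here. The rule of choice, applied to sgEPCR DMSO and sgEPCR UM171, found 9 genes, of which HPGDS was the 1 among the 25.

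By edgeR, 15 of the 25 genes were higher in sgEPCR UM171 than in sgEPCR DMSO, 3 were tested and not called and 7 were not tested because their counts were too low. Among all 15901 genes tested, 1112 were higher (6.99%). A member could pass the filter through the UM171 libraries alone, so the share among those tested is not read as a result. GZMB was at 0.2, 0.1 and 0 TPM in sgEPCR DMSO and at 28.6, 16.3 and 27.9 TPM in sgEPCR UM171, a log2 change of 7.77 (SE 0.58, adjusted p = 1.4e-06). EGR3 was at 0, 0.11 and 0.05 TPM and at 7.45, 4.97 and 7.67 TPM, a log2 change of 7.97 (SE 0.48, adjusted p = 3e-07). IL33 had 0 counts in all 3 sgEPCR DMSO libraries and was at least 31.5-fold higher in sgEPCR UM171 against a floor of 3 counts a library. The 3 genes tested and not called were HPGD, with a log2 difference of 3.76 (SE 0.52, adjusted p = 0.00013), LINC02812 and IL6, both at 0 counts in sgEPCR DMSO. The 7 not tested were GDAP1L1, TNFRSF11B, ENSG00000250934, HSPA7, GORAB-AS1, PMCH and WNT5B. Without the libraries with over 20% mitochondrial counts 17 genes were called, and with limma 9. With replicate number added to the fit 1 gene was called, and in a fit of these 6 libraries alone 0.

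**Figure D4:**
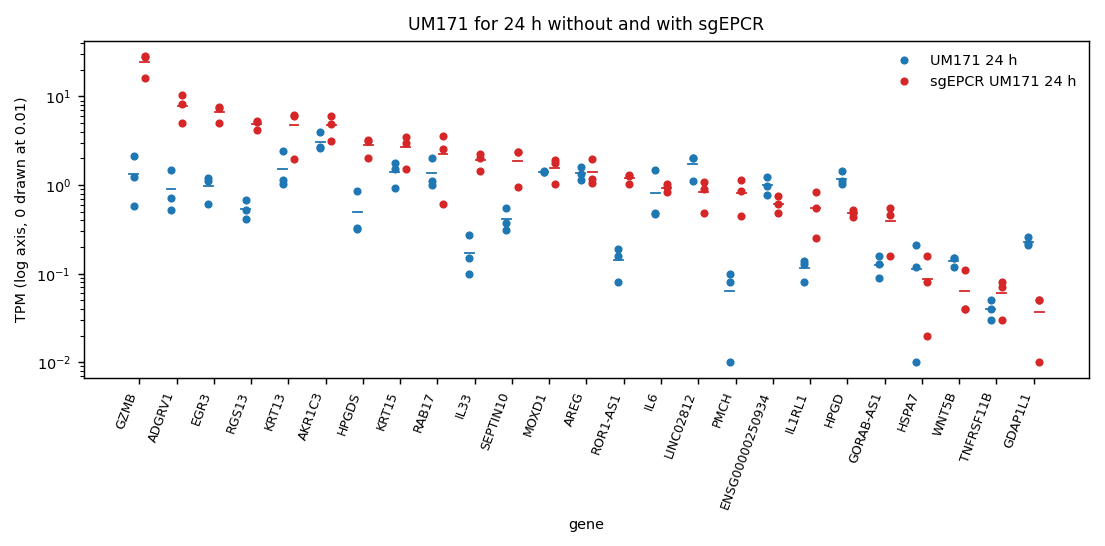
TPM of each of the 25 genes after 24 h of UM171 in cells without (blue) and with (red) sgEPCR. Points are libraries, bars are means of 3, the vertical axis is a log scale with 0 drawn at 0.01, and genes are ordered by the sgEPCR mean. For GZMB, ADGRV1, EGR3, RGS13 and IL33 every red point lies above every blue point. The same holds for HPGDS, SEPTIN10, ROR1-AS1, IL1RL1 and PMCH, which were not called or not tested. For HPGD, LINC02812, ENSG00000250934, GDAP1L1 and WNT5B every red point lies below every blue point. Such separation was not counted over all genes.

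At 24 h of UM171, 5 of the 25 genes were higher in sgEPCR cells than in the cells without sgEPCR, and 0 were called lower. Of the 25, 18 were tested, without the same 7 genes as above. Among all 15901 genes, 425 were higher (2.67%) and 284 lower (1.79%). Since a member could pass the filter through the sgEPCR UM171 libraries, nothing is read from the count of members against these shares. GZMB was at 0.58, 1.23 and 2.15 TPM without sgEPCR and at the 16.3 to 28.6 TPM given above with it, a log2 difference of 4.63 (SE 0.42, adjusted p = 1.3e-05). IL33 was at 0.15, 0.1 and 0.27 TPM against 2.01, 1.45 and 2.26 TPM, a log2 difference of 4.0 (SE 0.40, adjusted p = 7.9e-05). RGS13 was at 0.41, 0.52 and 0.68 TPM against 5.12, 4.15 and 5.24 TPM, a log2 difference of 3.46 (SE 0.42, adjusted p = 9.1e-05). The sgEPCR mean of RGS13 at 24 h was 160% of its mean after 72 h in the cells without sgEPCR.

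EGR3 was at 1.1, 0.61 and 1.21 TPM without sgEPCR and at 7.45, 4.97 and 7.67 TPM with it, a log2 difference of 3.25 (SE 0.32, adjusted p = 2.2e-05). ADGRV1 was at 0.71, 0.53 and 1.5 TPM against 8.3, 4.99 and 10.3 TPM, a log2 difference of 3.15 (SE 0.34, adjusted p = 4e-05). The level of ADGRV1 in sgEPCR cells at 24 h was 101% of the 72 h mean without sgEPCR, and that of EGR3 was 140%. HPGDS, at 3.2, 2.02 and 3.18 TPM with sgEPCR, missed the limit with a log2 difference of 3.38 (SE 0.42, adjusted p = 0.00011). HPGD went the other way in value, at 1.43, 1.02 and 1.11 TPM without and 0.44, 0.49 and 0.53 TPM with sgEPCR, and did not pass, with a log2 difference of -0.90 (SE 0.34, adjusted p = 0.052). LINC02812 also had a log2 difference of -0.90 (SE 0.31, adjusted p = 0.056).

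AREG was at 1.35, 1.14 and 1.59 TPM without and 1.18, 1.07 and 1.99 TPM with sgEPCR, with a log2 difference of 0.30 (SE 0.39, adjusted p = 0.55). The levels of AREG, MOXD1 and IL6 were not shown to differ, nor to be alike. At an adjusted p under 0.05, 12 of the 25 genes were higher and 0 lower. At an unadjusted p under 0.05, HPGD and LINC02812 were lower, and DESeq2 and limma each called 0 genes lower. DESeq2 called 10 genes higher. The 5 calls depended on single libraries. The number called was 1 without sgEPCR UM171 replicate 1, without sgEPCR UM171 replicate 3 or without UM171 24 h replicate 3, and 0 without UM171 24 h replicate 1 or 2, while 9 were called without the libraries with over 20% mitochondrial counts. The count was 0 in a fit of the 6 libraries alone and 0 with replicate number added to the fit. The DMSO libraries of the cells without sgEPCR were labelled 72 h, and the difference between the UM171 responses of the cells was not tested.

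Close to the limits of the rule, the 25 genes passed into a continuous range. The members with the lowest 72 h library were WNT5B (2.06 TPM), HSPA7 (2.21 TPM) and GORAB-AS1 (2.25 TPM). Just outside lay SERPIND1 (1.95 TPM), YPEL4 (1.94 TPM) and CYP4F22 (1.92 TPM), all silent in DMSO and with at least 94 counts in each 72 h library. In all, 38 genes silent in DMSO had 30 counts in every 72 h library but fell short of 2 TPM in at least 1. A limit of 1 TPM would have given 38 genes and a limit of 5 TPM 8 genes.

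Seen within their families, the 25 genes were a small part. Of 100 genes for interleukins, their receptors and signalling, 57 were silent in DMSO and IL1RL1, IL6 and IL33 were members. Of the 47 of these that could be tested, 6 were higher and 4 lower at 24 h than at 6 h by edgeR. At an unadjusted p under 0.05, 16 were higher and 15 lower in this step. At 48 h against 24 h, 6 were higher and 0 lower by edgeR (29 higher and 6 lower at an unadjusted p under 0.05). Over all genes tested, 3.61% were called higher in the first step and 2.51% in the second, which also stands beside the counts for the lists below. Of 319 keratin and keratin-associated genes, 303 were silent and 2 were members. In the TNF and TNF receptor families, 14 of 37 genes were silent and TNFRSF11B was the member. Of 42 chemokines, 32 were silent and 0 became members, and in 528 solute carriers, of which 253 were silent, the number was also 0. With 0.0651% of all silent genes being members, lists of this size are too small for a 0 to be informative. Chemokines that were not members did rise. Of 12 tested, 6 were higher and 0 lower at 48 h than at 24 h by edgeR. The summed level of the 42 was 420 to 473 TPM in DMSO and 3400 to 4760 TPM at 48 h.

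Markers of other blood cell types were read beside these genes. Of 18 mast cell, basophil and eosinophil markers, 10 could be tested, of which 2 were higher at 24 h than at 6 h (CPA3 and GATA2) and 7 at 48 h than at 24 h, CPA3, TPSAB1, TPSB2, HDC, PRG2, ENPP3 and FCER1A, with a median log2 change of 2.01. At an unadjusted p under 0.05 by edgeR, 6 were higher and 2 lower in the first step, and 8 higher and 1 lower in the second. The summed level of the 18 was 290 to 311 TPM in DMSO and 931 to 1010 TPM at 72 h, and 0 of them were at 0 counts throughout. IL1RL1, HPGDS and RGS13, genes known from mast cells, rose between 24 and 48 h. The part of such cells or such a state in the result was not tested. Other lists changed as well between DMSO and 72 h. Summed monocyte and macrophage markers went from 935 to 1040 TPM to 2040 to 2310 TPM, and neutrophil markers from 63.8 to 68.8 TPM to 169 to 190 TPM. The neutrophil sum held CTSG, at 31.5 TPM in DMSO and 143 TPM at 72 h, and 10 of its 16 genes were silent in DMSO. Of 5 neutrophil markers tested by edgeR, 0 were called higher in either step and 1 was called lower in the first. At an unadjusted p under 0.05, 1 was higher and 3 lower in the first step, and 2 higher and 2 lower in the second. Summed erythroid markers went from 144 to 157 TPM to 90.4 to 99.2 TPM, but 11 of these 14 genes were silent in DMSO and 3 could be tested. By edgeR, 0 were called higher and 1 lower in the first step, and 0 in either direction in the second. At an unadjusted p under 0.05, 2 were higher and 1 lower, and then 1 higher and 0 lower. Of 10 NK cell markers, 4 could be tested and 0 were called by edgeR in either step (1 and then 3 were higher at an unadjusted p under 0.05), at a summed 32.9 to 35.8 TPM in DMSO and 82.4 to 87.1 TPM at 72 h, with KLRB1 at 0. Of 15 T cell markers, 4 could be tested, and CD3D and TRAC were higher at 24 h than at 6 h and CD3D again at 48 h. CD5, CD7, TRBC1 and TRBC2 were at 0 in every time course library. Markers given as at 0 in the other lists were also checked in the time course libraries only. Of 11 megakaryocyte markers, 4 could be tested, 0 were called by edgeR at 24 h against 6 h (1 was higher at an unadjusted p under 0.05) and ITGA2B and ITGB3 were higher at 48 h than at 24 h, at a summed 5.28 to 5.62 TPM in DMSO and 23.5 to 29.1 TPM at 72 h, with GP9 and PF4 at 0. Of 10 plasmacytoid dendritic cell markers, among which GZMB itself was listed, 7 could be tested, GZMB was higher in both steps and NRP1 in the second. Of 13 epithelial markers, 3 could be tested and 0 were called by edgeR in either step (1 and then 2 were higher at an unadjusted p under 0.05), with KRT5 and KRT18 at 0, while KRT13 and KRT15 were at 10.3 and 42.7 TPM at 72 h.

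The genes around the 25 were mixed. Within 100 kb of 24 of them lay 65 coding genes that were not members, of which 30 were silent in DMSO and 35 could be tested at 72 h against DMSO. Of these 35, 12 were higher, where 15% of all genes tested were, and 1 was lower. This contrast used the libraries of the rule. A neighbour could pass the filter through its UM171 libraries, like SOWAHC (0 TPM in DMSO, 0.127 TPM at 72 h). Reads could also be shared with a member by a paralogue or an overlapping gene, such as AKR1C1, AKR1C2 or IL18R1. Nothing is therefore read from the count of neighbours against the 15%. The 12 were CTSG, KRT9, AKR1C1, AKR1C2, IL18R1, IL18RAP, SH3RF3, SOWAHC, KLF15, RGS1, FCGR2C and FCGR2B. They lay near 9 of the members, counting KRT13 and KRT15. RGS1, 56114 bp from RGS13, had 0.54 TPM in DMSO and 14.2 TPM at 72 h. The gene that was lower was CCAR2, 66695 bp from EGR3, with 219 TPM in DMSO and 110 TPM at 72 h. POLR3G beside ADGRV1 had 16.7 and 13.7 TPM and TOMM7 beside IL6 had 227 and 169 TPM.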

How the data were processed

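RNA from 21 OCI-AML5 libraries was sequenced after poly(A) selection with a stranded kit. Per the labels' processing notes, CASAVA 1.8.2, Trimmomatic 0.35, STAR 2.5.1b, RSEM 1.2.28 and GRCh38 were used, whereas the methods of the study name kallisto and sleuth; the strand setting is not given in the sources used here. The authors deposited, per library, unnormalized RSEM expected counts of each gene, with reads that fit several genes divided among them, and TPM, scaled by RSEM for the effective transcript length it estimated in each library and for the library total. TPM can therefore differ between libraries with equal counts. Of 58219 entries, 45 of the Y pseudoautosomal region were summed with their X copies, leaving 58174 identifiers, 57392 of them with a symbol in GENCODE v44, from which coordinates and gene types were taken. Promoter windows came from RefSeq on GRCh38.p14.

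Expected counts were rounded and tested with edgeR 4.0.16 in R 4.3.3 (filterByExpr, TMM, glmQLFit and glmQLFTest, Benjamini-Hochberg adjustment over all genes tested). The time course fit held 15 libraries and 16575 genes, and the sgEPCR fit 12 libraries and 15901 genes. A gene was called at an adjusted p under 0.0001 and over 2-fold. As alternatives served DESeq2 1.42.0, limma 3.58.1 run on log2(TPM + 1) values, normalization by upper quartile, other filters, fits of the groups compared alone, a replicate block and leaving out each library. On simulated counts with 200 genes changed 4-fold, 198 of them were recovered with 0 false calls for 24 h against 6 h (16138 genes), and 199 with 0 false calls for sgEPCR UM171 against sgEPCR DMSO (15606 genes). The simulation gave all libraries of a fit the same relative spread and changed only genes with ample counts. It therefore gives no error rate for genes near 0 counts or for groups with outlying libraries.

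The 25 genes and the gene lists were chosen with earlier results of these data known. Values in every library were to be given for the 10 genes with the highest 72 h mean, for those detected at 6 h, for those called between sgEPCR UM171 and UM171 24 h, and, as single values, for the 3 genes nearest to the limit on each side; paralogues, partners and neighbours of the 25 genes were named after their values were seen. Tables were made with Python 3.11.15 and pandas 2.3.3, and figures with matplotlib 3.10.9.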

Additional observations from a re-analysis of the deposited data

How the results depend on the processing

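The number of genes chosen was 38 with a 72 h limit of 1 TPM, 8 with 5 TPM, 11 with at most 1 expected count in DMSO and 91 with at most 10 counts and no limit on the mean, and 25 to 31 with 1 library left out. Genes first detected at 6 h numbered 2 with more than 10 counts and 14 with a mean above 0.1 TPM (8 to 9 with 1 library left out). At 48 h they numbered 9 with more than 10 counts, and 3 whichever library was left out. At 72 h they numbered 2 with more than 10 counts and 0 under both looser definitions. Calls at 24 h against 6 h numbered 3 with limma and 8 with these groups fitted alone (7 to 11 with 1 library left out), those at 48 h against 24 h 16 to 18, those for sgEPCR UM171 against sgEPCR DMSO 9 with limma and 0 alone (11 to 13), and those for sgEPCR UM171 against UM171 24 h 10 with DESeq2, 12 at an adjusted p under 0.05, 9 without the libraries rich in mitochondrial counts and 0 alone (0 to 5). With 1 library fewer, fewer genes or degrees of freedom enter each fit, and the cause of the other changes was not tested. The log2 difference between 24 h and 6 h changed sign for TNFRSF11B, from 0.06 to -0.03 with limma and -0.04 with upper quartile normalization (-0.35 to 1.5 with 1 library left out), and for HSPA7, from 0.20 (-0.36 to 0.97 with 1 library left out). Both rest on counts of 7 or fewer.

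Replicate numbers were not found to pair the libraries. Same-numbered libraries correlated at -0.02, 0.07 and 0.01 (24 h and 6 h), -0.05, 0 and 0.05 (48 h and 24 h), -0.56, -0.56 and 0.41 (the sgEPCR groups) and -0.08, 0.02 and 0.10 (sgEPCR UM171 and UM171 24 h), and not every library correlated best with its own number. With a replicate block, 12 genes were called at 24 h against 6 h, 18 at 48 h against 24 h, 1 for sgEPCR UM171 against sgEPCR DMSO and 0 for sgEPCR UM171 against UM171 24 h.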
